A study of Homo sapiens with 4 samples.

Results

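The genes described here encode the aminoacyl-tRNA synthetases, the enzymes that join each amino acid to its tRNA, and the 3 proteins that hold several of them in one complex. They were chosen by name from a list of 39 genes, of which 20 encode cytosolic enzymes, 16 encode mitochondrial enzymes with names ending in 2, and 3 encode scaffold proteins. Of the 39, 34 were found (17 cytosolic, 14 mitochondrial and 3 scaffold genes), each in all 4 deposited tables, which together list 9271 transcripts at 1 transcript per gene. FARSA, GARS, IARS2, TARS and YARS2 were in none of the 4 tables and were not analysed here. The study sequenced ribosome protected mRNA fragments (RPFs) from HEK293T cells, an established line from human embryonic kidney that carries the large T antigen of SV40. It compared untreated cells with cells that received G418 at 500 µg/mL (0.5 mg/mL) for 24 hr, with 2 biological replicates of each, here called untreated A and B and G418 A and B. G418, an aminoglycoside, acts at the site of the ribosome where codons are read, and the study asked how it changes readthrough of stop codons. All 4 libraries came from the same line, with no further genetic change named, and the labels do not say whether replicates A and B were separate cultures, so adjusted p-values measure the spread between these libraries.

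Most synthetases recognise 1 amino acid and the tRNAs that carry it. In the cytosol, several of the enzymes sit together in the multi-tRNA synthetase complex on the scaffold proteins AIMP1, AIMP2 and EEF1E1, while most mitochondrial enzymes are separate proteins, encoded in the nucleus and imported. When tRNAs are left uncharged, the kinase GCN2 is activated and translation of the transcription factor ATF4 rises, and genes of many cytosolic synthetases are usually listed among the targets of ATF4.

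Reads on mRNAs ranged from 2440204 in untreated replicate B to 6082600 in untreated replicate A, and the tables hold only transcripts with a coding sequence (CDS) density of at least 1 RPKM (reads scaled to library size and region length). Of 5 genes taken as markers of the HEK293T line, the neurofilament genes NEFM, NEFL and INA and the RNA-binding protein gene LIN28B were in all 4 tables and PAX2 was in 2. Of 6 markers of other cell types, COL1A1 was in all 4 tables and PTPRC, CD3E, ALB, KRT5 and PECAM1 were in none. For 1 value per library the smallest p-value of an exact two-sided permutation test between 2 and 2 libraries is 0.333.

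Ribosome density on the CDS differed widely among the synthetase genes, with a higher median in cytosolic than in mitochondrial enzymes (plot of CDS density by gene). Among the 17 cytosolic enzymes the median was 150.3 and 118 RPKM in untreated A and B and 134 and 120.2 RPKM in G418 A and B. Among the 14 mitochondrial enzymes it was 21.9, 20.2, 21.9 and 19.6 RPKM in the same order. The medians of the conditions overlapped in both groups of enzymes. RARS, the arginyl-tRNA synthetase, had the highest density of the cytosolic enzymes in each library, from 195 to 235 RPKM. CARS, the cysteinyl enzyme, had the lowest, from 26.4 to 32.8 RPKM. TARS2, the mitochondrial threonyl enzyme, was highest among the mitochondrial enzymes, from 49.5 to 57.8 RPKM, and it lay above CARS in every library, as did LARS2 (30.1 to 41.7 RPKM) and EARS2 (29.2 to 37.3 RPKM). At the low end VARS2 ranged from 5.99 to 8.71 RPKM and PARS2 from 6.08 to 8.67 RPKM, and their ranges overlapped. EEF1E1 had the highest density of the scaffold genes, with 265 and 211 RPKM in untreated A and B and 266 and 249.7 RPKM in G418 A and B. AIMP2 ranged from 171 to 203 RPKM and AIMP1 from 112 to 137 RPKM, without overlap between these 3 genes.

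**Figure D1:**
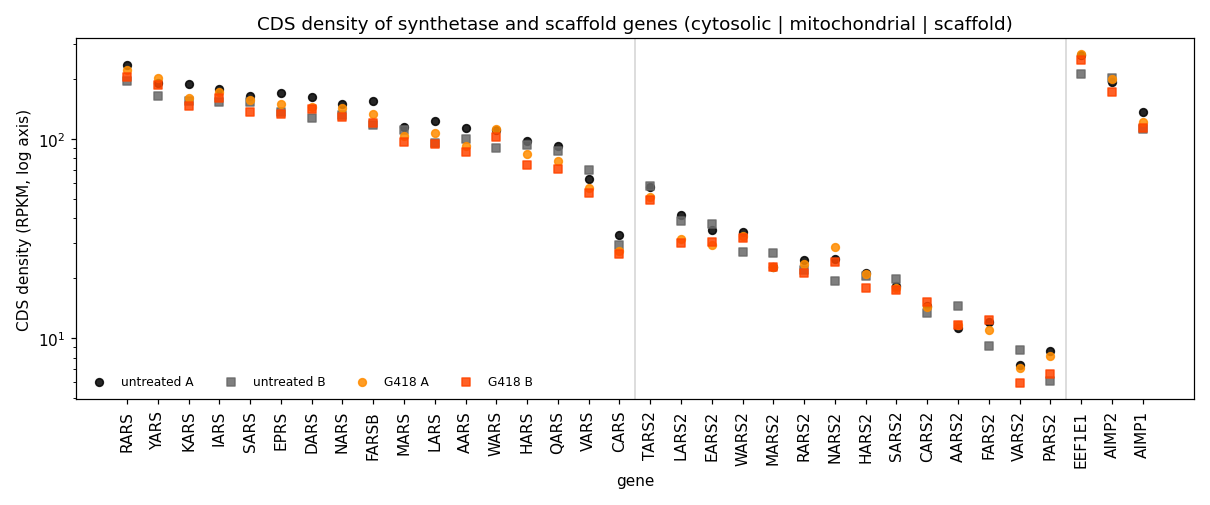
CDS density in RPKM (log axis) of each gene in each of the 4 libraries, with cytosolic enzymes, mitochondrial enzymes and scaffold proteins separated by grey lines. TARS2 (49.5 to 57.8 RPKM) lies above CARS (26.4 to 32.8 RPKM), and all 14 mitochondrial enzymes lie below the medians of the cytosolic enzymes.

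Summed over genes, cytosolic enzymes took 0.836% and 0.785% of all CDS counts in untreated A and B and 0.777% and 0.774% in G418 A and B. The means were 0.811% ± 0.036 in untreated and 0.775% ± 0.0015 in G418-treated cells (SD, n = 2 for each). Mitochondrial enzymes took 0.0940% and 0.101% in untreated cells and 0.0878% and 0.0917% in G418-treated cells. Their means were 0.0974% ± 0.0049 and 0.0897% ± 0.0028 (SD, n = 2 for each). In both groups of enzymes each G418 library lay below each untreated library, but for cytosolic enzymes the means differed by no more than the SD of the untreated replicates. Scaffold genes took 0.0629% and 0.0628% in untreated cells and 0.0632% and 0.0617% in G418-treated cells, and these values overlapped. No test was run on these sums, since their genes were chosen.

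CDS counts were then compared between conditions with edgeR's quasi-likelihood test over 8494 transcripts, with Benjamini-Hochberg adjusted p-values and a threshold of 0.05. All 34 genes passed the filter on low counts. No synthetase or scaffold gene rose in G418-treated cells, against 5.31% of all transcripts tested, and at an unadjusted p-value below 0.05 the number that rose was also 0 (DESeq2 called 0). CDS counts fell for 5 of the 34 genes, against 3.21% of all transcripts tested. These were 4 cytosolic enzymes (QARS, HARS, VARS and AARS) and 1 mitochondrial enzyme (LARS2). The fitted log2 fold change was below 0 for 28 of the 34 genes, with a median of -0.16 (all transcripts tested, 0.0025), and below 0 for 49.6% of all transcripts tested. By group the median was -0.18 for cytosolic enzymes, -0.16 for mitochondrial enzymes and -0.16 for scaffold genes. Without untreated replicate A the medians were -0.084, -0.26 and -0.061, and without untreated replicate B the scaffold median was -0.074. In 22 genes both G418 libraries lay below both untreated libraries in counts scaled to library size (CPM), and in 1 gene both lay above, where 24.8% and 26.5% of all transcripts tested did so. The cells were measured in bulk, so fewer cells of a type and less RNA per cell cannot be told apart, and RPFs alone do not separate the amount of an mRNA from its translation. The study also sequenced RNA of untreated and G418-treated cells, but those libraries were not used here.

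LARS2, which charges mitochondrial tRNA with leucine, had 179.5 and 181 CPM in untreated A and B and 129 and 133 in G418 A and B. Both G418 values lay below both untreated values, and the log2 fold change was -0.46 (standard error 0.10, adjusted p = 0.0028 from edgeR). QARS, the glutaminyl-tRNA synthetase of the multi-tRNA synthetase complex, had 342 and 349.5 CPM in untreated cells and 272 and 269 in G418-treated cells. Its log2 fold change was -0.35 (standard error 0.09, adjusted p = 0.011 from edgeR). HARS, the cytosolic histidyl enzyme, had 235 and 244 CPM in untreated cells and 194 and 184 in G418-treated cells, and its log2 fold change was -0.34 (standard error 0.10, adjusted p = 0.022 from edgeR). In both genes the replicates of a condition lay closer to each other than to the other condition.
VARS, the cytosolic valyl enzyme, had 382 and 459.7 CPM in untreated cells and 329 and 333 in G418-treated cells (log2 fold change -0.34, standard error 0.09, adjusted p = 0.021 from edgeR). Its untreated replicates differed by more than those of the other 4 genes, but did not overlap the G418 replicates, and its log2 fold change was -0.47 without untreated replicate A and -0.21 without untreated replicate B. AARS, the cytosolic alanyl enzyme, had 522 and 505 CPM in untreated cells and 406 and 409.8 in G418-treated cells (log2 fold change -0.33, standard error 0.09, adjusted p = 0.011 from edgeR). The largest of these 5 changes, in LARS2, was to 0.726 of the untreated level.
All 5 kept their call without either untreated library and lost it without either G418 library, where their log2 fold changes still lay between -0.49 (LARS2) and -0.30 (HARS). Without G418 replicate A or without G418 replicate B the number that fell was thus 0 (4 and 5 genes at an unadjusted p-value below 0.05), and over all transcripts it went from 273 to 15 and 16. Without untreated replicate A it was 13 and without untreated replicate B 18, while over all transcripts it was 803 and 1092. DESeq2 called LARS2, QARS and AARS, and scaling to library totals left LARS2 alone, since it moved the median of all transcripts to 0.11.

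The 3 largest fitted changes in the other direction did not pass the test. NARS2, the mitochondrial asparaginyl enzyme, had 56.0 and 47.7 CPM in untreated A and B and 61.4 and 55.9 in G418 A and B (log2 fold change 0.15, standard error 0.13, adjusted p = 0.53 from edgeR). YARS, the cytosolic tyrosyl enzyme, had 474 and 448 CPM in untreated cells and 483 and 478 in G418-treated cells (log2 fold change 0.06, standard error 0.09, adjusted p = 0.75 from edgeR). EEF1E1 had 165 and 143 CPM in untreated cells and 158 and 159.7 in G418-treated cells, and its log2 fold change was 0.03 (standard error 0.10, adjusted p = 0.89 from edgeR). YARS was the only gene of the 34 whose G418 values both lay above the untreated values, while NARS2 and EEF1E1 overlapped between conditions. Of the 26 remaining genes, MARS (adjusted p = 0.06), EARS2 (adjusted p = 0.071), TARS2 (adjusted p = 0.088), KARS (adjusted p = 0.09) and CARS (adjusted p = 0.091) had the lowest adjusted p-values from edgeR, and their log2 fold changes lay between -0.33 (EARS2) and -0.23 (KARS).

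**Figure D2:**
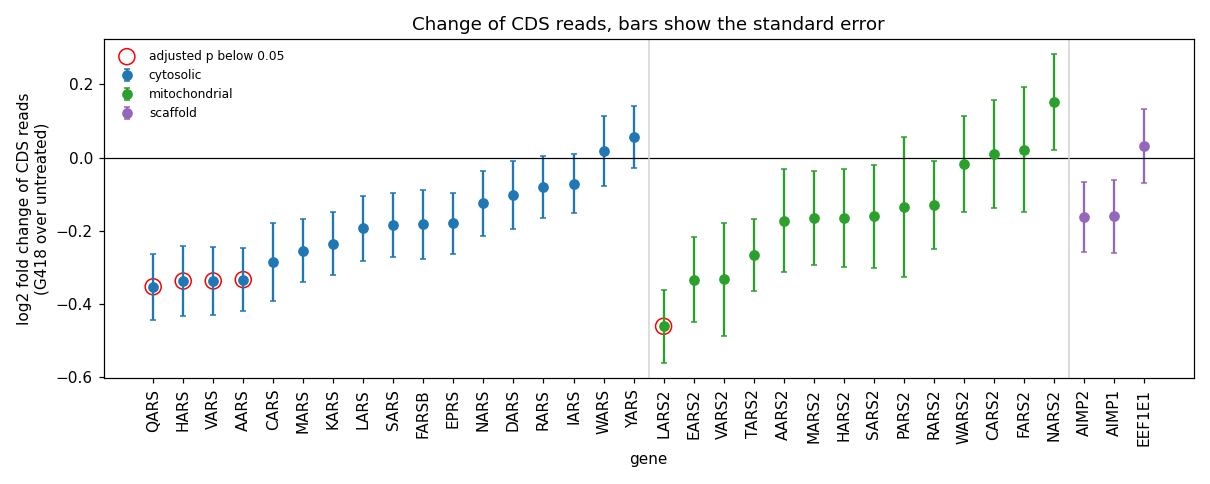
Log2 fold change of CDS counts (G418 over untreated) for each gene, with bars for the standard error, colours for the 3 groups and red circles for an adjusted p-value below 0.05 from edgeR. The circled genes are QARS (-0.35), HARS (-0.34), VARS (-0.34), AARS (-0.33) and LARS2 (-0.46), and 28 of the 34 points lie below 0.

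The 5 genes that fell lay in and outside the multi-tRNA synthetase complex and in both enzyme classes. Over all transcripts tested 3.21% fell, and the counts below are too few to compare the groups. Of the 11 genes of the multi-tRNA synthetase complex 1 fell (QARS), with a median log2 fold change of -0.16, and of the 9 cytosolic enzymes outside it 3 fell, with a median of -0.18. Synthetases belong to 2 classes with unrelated catalytic domains. Of 16 class I enzymes 3 fell and of 14 class II enzymes 2 fell, while EPRS, which joins an enzyme of each class in a single protein, had a log2 fold change of -0.18 (adjusted p = 0.18 from edgeR). HARS and HARS2 lie head to head on chromosome 5, and the 300 nt windows around their start sites overlap by 184 nt. HARS2 had a log2 fold change of -0.16 (SE 0.13, adjusted p = 0.50 from edgeR), so that the fall passed the test only in HARS, and the difference between these genes was not tested.

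Of the cytosolic enzymes, 11 of those measured are usually listed as targets of ATF4. None of these rose (0 also at an unadjusted p-value below 0.05), against 5.31% of all transcripts tested, so that 0 of 11 lies near that share. AARS and VARS fell, against 3.21% of all transcripts tested. The median log2 fold change of the 11 was -0.18. Of the 6 other cytosolic enzymes measured 2 fell (QARS and HARS), with a median of -0.21. ATF4 binds composite DNA elements, and the letters TGATGNAA (N is any base, read on either strand) were searched in RefSeq promoter windows of 300 nt (250 nt before and 50 nt after the start site, GRCh38.p14), which were found for 28 of the 34 genes. The letters were present in 5 of these 28, and in 3.67% of all 27305 promoter windows. All 5 were cytosolic enzymes listed as ATF4 targets, of which 8 had a window, while the letters were in 0 of 5 windows of other cytosolic enzymes, 0 of 12 of mitochondrial enzymes and 0 of 3 of scaffold genes. The 5 sites are shown because they mark the members of the ATF4 list whose window held these exact letters. LARS, VARS and YARS of this list had no window and were not searched. Each is given on the coding strand 5′ to 3′ with the match in capitals, and in AARS, CARS, IARS and MARS the match reads on the opposite strand.
AARS, chr16:70289675-70289704, minus strand: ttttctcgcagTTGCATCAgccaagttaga
CARS, chr11:3057407-3057436, minus strand: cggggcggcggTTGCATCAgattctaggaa
IARS, chr9:92293692-92293721, minus strand: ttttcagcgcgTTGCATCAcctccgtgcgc
MARS, chr12:57488053-57488082, plus strand: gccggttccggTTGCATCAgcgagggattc
NARS, chr18:57621804-57621833, minus strand: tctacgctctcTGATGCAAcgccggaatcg
The match began between 187 nt before (AARS) and 14 nt after (NARS) the start site. Of these 5 genes AARS fell, and the log2 fold changes of the others were -0.29 (CARS), -0.25 (MARS), -0.13 (NARS) and -0.07 (IARS), none past the threshold.

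The other genes of the amino acid response were compared in the same test. Of 26 listed genes 23 were tested, 3 rose and 3 fell, against 5.31% and 3.21% of all transcripts tested. ATF4 itself had 32.6 and 38.2 CPM in untreated A and B and 60.1 and 70.3 in G418 A and B, without overlap. Its log2 fold change was 0.91 (standard error 0.14, adjusted p = 0.0001 from edgeR), and without G418 replicate B the adjusted p-value was 0.062. CEBPG, which pairs with ATF4 on DNA, rose by a log2 fold change of 0.56 (adjusted p = 0.032 from edgeR) and SLC7A5, a transporter of large neutral amino acids, by 0.36 (adjusted p = 0.021 from edgeR).
ALDH18A1, of proline synthesis, fell by 0.52 on the log2 scale (adjusted p = 0.00024 from edgeR), PHGDH, the enzyme that commits carbon to serine synthesis, by 0.39 (adjusted p = 0.0026 from edgeR) and SHMT2, which makes glycine from serine in mitochondria, by 0.35 (adjusted p = 0.0083 from edgeR). ASNS, the asparagine synthetase that ATF4 activates, had a log2 fold change of -0.18 (adjusted p = 0.23 from edgeR). The median of the 23 was -0.07.
Among 15 genes listed as partners of tRNA charging, 11 were tested, and 0 rose and 3 fell, against 5.31% and 3.21% of all transcripts tested. At an unadjusted p-value below 0.05 from edgeR, 2 lay higher and 5 lower. The 3 that fell encode subunits of elongation factor 1, of which EEF1A1 carries charged tRNA to the ribosome. EEF1A1 fell by 0.43 on the log2 scale (adjusted p = 0.0002 from edgeR), EEF1D by 0.42 (adjusted p = 0.016 from edgeR) and EEF1G by 0.38 (adjusted p = 0.0015 from edgeR). XPOT, which exports tRNA from the nucleus, had a log2 fold change of 0.24 (adjusted p = 0.12 from edgeR). Of the subunits of the mitochondrial amidotransferase that completes glutaminyl-tRNA, QRSL1 had 0.20, GATB -0.11 and GATC -0.29, none past the threshold. ATF4 kept its call without G418 replicate A, while the other genes of both lists that passed lost theirs without either G418 library, and DESeq2 did not call CEBPG, SLC7A5 or EEF1D.

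Readthrough was measured as the ribosome readthrough score (RRTS), the density of RPFs from the normal termination codon (NTC) to the nearest stop codon in the same frame of the 3′UTR (3′TC), divided by the density on the CDS and given here in percent. The 6 nt that follow the NTC are not counted. For each gene, the reads that its CDS density would place in this region are called the expected reads. The score assumes that reads in this region come from readthrough. The study found the frame of the CDS kept in 3′UTRs of G418-treated cells but lost in those of untreated cells. Untreated RRTS therefore need not measure readthrough, and the frame of reads was not examined here. The NTC was UAA in 11, UAG in 8 and UGA in 15 of the 34 genes, with C as the next nucleotide in 9. This 3′TC lay at a median of 71 nt (all transcripts, 69 nt). SARS2, RARS, FARS2 and VARS had no in-frame 3′TC, 11.8% of the 34 genes against 4.81% of all transcripts, and their RRTS covers the whole 3′UTR. Transcripts of 32 genes matched GENCODE version 44 on hg38 in CDS length, stop codon with its next nucleotide and extension. For EARS2 and HARS the transcript was not matched, and their sequence is not shown.

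The stop codon contexts of 11 genes that the readthrough values turn on are given as mRNA sense DNA letters, 5′ to 3′, from 12 nt before the NTC. The capitals mark the NTC and the nucleotide after it, and each position is that of the NTC. The first group holds, with HARS left out, the enzymes with the most RPFs between NTC and 3′TC in G418-treated cells.
SARS, chr1:109237886-109237888, plus strand: gtcaccgatgctTGAAcattcctgcctccc
KARS, chr16:75627895-75627897, minus strand: ggcacttctgtcTAGAaaataataattgca
NARS, chr18:57601652-57601654, minus strand: cgttgcacgccaTAACcattttctccagaa
NARS2, chr11:78436670-78436672, minus strand: tcatgccttttaTAGCtggaagattggtta
AARS, chr16:70252721-70252723, minus strand: gatgtaaagaacTGAGtggggaaggaggag
The second group holds the 3 genes with the highest pooled RRTS in G418-treated cells, 2 mitochondrial enzymes and WARS, the cytosolic tryptophanyl enzyme.
AARS2, chr6:44300547-44300549, minus strand: ctcagccagctcTGACccaggtccgcccag
LARS2, chr3:45547528-45547530, plus strand: ctggtgcaagatTGACagccaggaggctgc
WARS, chr14:100334875-100334877, minus strand: ttcgactttcagTAGCactcgttttacata
The last group holds genes with a low RRTS in G418-treated cells or without a rise.
RARS, chr5:168519188-168519190, plus strand: gtccaaaggatgTAATccttcataggtttg
LARS, chr5:146114106-146114108, minus strand: tatctggttcatTAAActcatgcacattgg
EEF1E1, chr6:8073475-8073477, minus strand: gaggtagggaacTAACccaacatcatacaa

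RRTS was compared between conditions by the same edgeR test, on reads before the 3′TC with CDS reads as offset. Of the 34 genes 19 had the 10 reads over 4 libraries that the test required. RRTS rose in 14 of these 19, against 82.6% of 2827 transcripts tested, and fell in 0, against 0.0707% (0 also at an unadjusted p-value below 0.05 and by DESeq2). The minimum of reads is met largely through G418 libraries, so the 19 are not a sample of all 34. The median log2 fold change of the 19 was 2.58 (all transcripts tested, 3.18). The genes whose RRTS rose were 10 cytosolic enzymes (SARS, YARS, WARS, HARS, EPRS, NARS, KARS, AARS, QARS and DARS) and 4 mitochondrial enzymes (WARS2, HARS2, MARS2 and NARS2). Over all 34 genes, both G418 libraries had a higher RRTS than both untreated libraries in 24, while 65.3% of 6509 transcripts did so. With reads of the whole 3′UTR 21 of 25 genes tested were called, DESeq2 called 7 of the 19, and without untreated replicate A the number was 9, without G418 replicate A 8, without G418 replicate B 10 and without untreated replicate B 13.

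SARS, the cytosolic seryl enzyme, had the most reads between its UGA and the 3′TC in G418-treated cells, 65 and 41 in G418 A and B, against 1 and 0 in untreated A and B. Its RRTS was 0.366% and 0% in untreated cells and 26.5% and 20.9% in G418-treated cells, and the conditions did not overlap. The ratio of pooled reads per CDS read was 92.4, with a 95% exact interval of 16.2 to 3682 that reflects the single untreated read (adjusted p = 9.0e-23 from edgeR). KARS, which charges lysine in the cytosol and in mitochondria, has UAG followed by A and had 7 and 2 reads in untreated cells and 35 and 30 in G418-treated cells. Its RRTS was 3.09% and 2.46% in untreated cells and 19.3% and 19.8% in G418-treated cells (log2 fold change 2.71, standard error 0.45, adjusted p = 1.4e-08 from edgeR). HARS had 2 and 2 reads in untreated cells and 37 and 22 in G418-treated cells, with an RRTS of 1.06% and 2.56% against 24.2% and 17.9% (log2 fold change 3.75, standard error 0.56, adjusted p = 1.7e-10 from edgeR). In each of these 3 genes the G418 replicates lay well above the untreated ones, although CDS counts of HARS fell.
NARS, the cytosolic asparaginyl enzyme, has UAA followed by C and had 3 and 2 reads in untreated cells and 26 and 18 in G418-treated cells. Its RRTS was 1.41% and 2.46% in untreated cells and 13.6% and 11.5% in G418-treated cells (log2 fold change 2.84, standard error 0.59, adjusted p = 6.3e-06 from edgeR). AARS had 3 and 2 reads in untreated cells and 18 and 14 in G418-treated cells, and its RRTS of 27.8% and 25.2% in G418-treated cells lay above 3.54% and 6.09% in untreated cells (log2 fold change 2.58, standard error 0.65, adjusted p = 0.00019 from edgeR).
NARS2 had 6 and 4 reads in untreated cells and 24 and 16 in G418-treated cells. Its RRTS was 12.7% and 24.8% in untreated cells and 47.0% and 40.6% in G418-treated cells. The log2 fold change was 1.46, the smallest of the 14 that rose (standard error 0.52, adjusted p = 0.0074 from edgeR), and the adjusted p-value was 0.27 without untreated replicate A and 0.078 without G418 replicate A. SARS, KARS, HARS, NARS and AARS kept their call when any single library was left out.

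**Figure D3:**
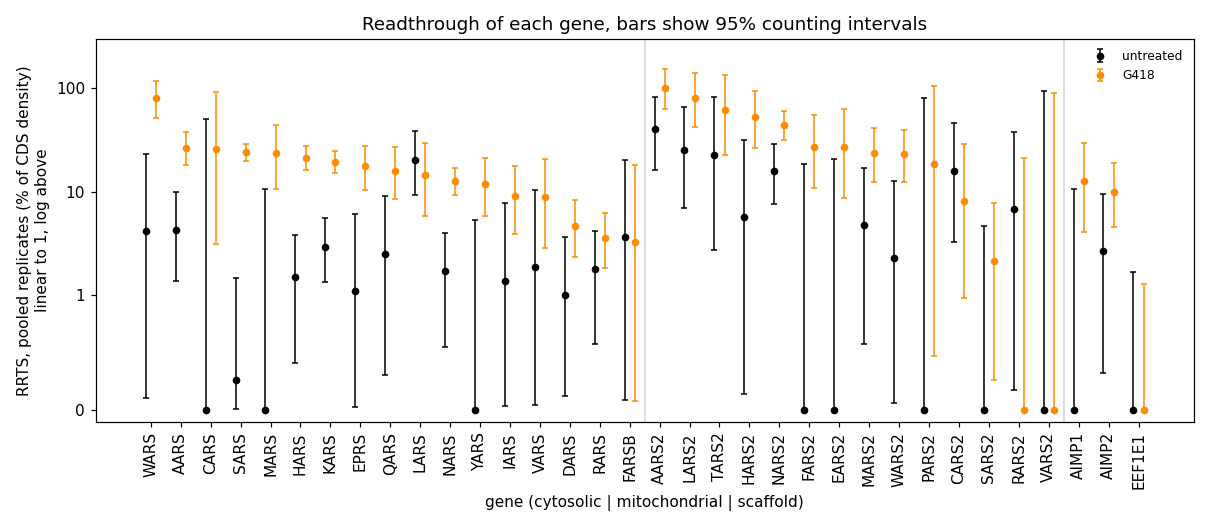
RRTS of each gene in percent of CDS density (linear to 1, log above) from the pooled replicates of each condition, with bars for 95% exact Poisson intervals of the reads. SARS moves from 0.260% to 24.0%, NARS2 from 15.8% to 44.2%, and EEF1E1 stays at 0 in both conditions.

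The other 8 genes whose RRTS rose had at most 2 untreated reads each in total. YARS had no untreated read, and 8 and 3 reads in G418 A and B, an RRTS at least 2.74-fold higher than 3 untreated reads over both libraries would give. WARS had 1 and 0 reads in untreated cells and 10 and 15 in G418-treated cells, a ratio of 19.3 with a 95% exact interval of 3.17 to 794. EPRS had 1 and 0 reads against 7 and 11, a ratio of 16.1 (95% exact interval 2.54 to 672). For DARS, the aspartyl enzyme, the adjusted p-value was 0.0497 from edgeR and the call was lost without any one of the 4 libraries. The calls of WARS2, MARS2, QARS, EPRS, YARS and HARS2 were each lost without at least 1 library.

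RRTS did not pass the test in LARS, RARS, AARS2, LARS2 and AIMP2. With reads of the whole 3′UTR, AIMP2 (adjusted p = 0.00028 from edgeR), LARS2 (adjusted p = 0.001) and AARS2 (adjusted p = 0.0098) passed. LARS, the cytosolic leucyl enzyme, had 8 and 1 reads in untreated A and B and 3 and 4 in G418 A and B. Its RRTS of 24.3% and 8.94% in untreated cells overlapped 11.2% and 18.3% in G418-treated cells (log2 fold change -0.48, standard error 0.81, adjusted p = 0.56 from edgeR), and without untreated replicate A the log2 fold change was 0.65. RARS had 3 and 2 reads in untreated cells and 9 and 3 in G418-treated cells. Its pooled RRTS was 1.77% in untreated and 3.53% in G418-treated cells, the latter from 12 of 340.2 expected reads, and the ratio of 1.99 had a 95% exact interval of 0.653 to 7.22. RARS was among the deepest genes of the family, so its G418 value was bounded between 1.82% and 6.16%.
The RRTS of AARS2 and LARS2 was high in both conditions. AARS2 had 6 and 1 reads in untreated cells and 15 and 6 in G418-treated cells, so that its pooled RRTS was 40.01% (95% exact interval 16.1 to 82.4) in untreated and 101% (62.4 to 154) in G418-treated cells. LARS2 had 2 and 2 reads against 4 and 8, and its pooled RRTS was 25.5% (6.95 to 65.3) in untreated and 81.1% (41.9 to 142) in G418-treated cells. Both have UGA followed by C, and in each the G418 values lay above the untreated ones, with adjusted p-values of 0.065 (AARS2) and 0.07 (LARS2) from edgeR. Without 1 library the log2 fold change lay between 0.57 and 2.56 for AARS2 and between 0.85 and 2.11 for LARS2. With DESeq2 the adjusted p-values were 0.24 (AARS2) and 0.29 (LARS2).

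Of the 15 genes not tested, 3 had no read before the in-frame 3′TC in either G418 library. For VARS2 and RARS2 only 4.11 and 17.4 reads were expected there over both G418 libraries at an RRTS of 100%, so 0 reads allow an RRTS of up to 73.0% and 17.3% when 3 reads are taken as the limit. EEF1E1 differed in depth, with 0 of 286 expected reads in G418-treated cells, which allows up to 1.05%, and 0 of 219.8 in untreated cells, which allows up to 1.36%. The median RRTS in G418-treated cells of transcripts with the same UAAC signal was 22.3% (n = 358). EEF1E1 was also the only gene of the 32 matched ones whose deposited transcript ends at another NTC than the MANE Select transcript, the transcript agreed between RefSeq and Ensembl. The deposited transcript has 139 codons and the MANE Select transcript 174, with its NTC at chr6:8079890-8079892 on the minus strand, and the part of this in the value was not tested. The whole 3′UTR of the deposited transcript held 0 reads in each library. The expected reads and limits of EEF1E1 hold only if its CDS reads came from the deposited transcript, so they do not bound readthrough otherwise. SARS2, the mitochondrial seryl enzyme, had 0 and 0 reads in untreated cells and 1 and 1 in G418-treated cells, 2.14% of 93.4 expected reads (95% exact interval 0.259 to 7.73).

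Cytosolic and mitochondrial enzymes were also summarised by 1 value per library (plot of aggregate RRTS). Aggregate RRTS divides the summed reads by the summed expected reads, over genes that reach the minimum of mRNA reads of the methods in every library. For the 17 cytosolic enzymes it was 1.99% and 2.00% in untreated A and B and 16.5% and 15.4% in G418 A and B, close to 1.84% and 1.64% and 15.0% and 14.3% for all 3743 transcripts that met this minimum. For 7 mitochondrial enzymes it was 15.0% and 13.0% in untreated cells and 46.5% and 39.3% in G418-treated cells. The means were 14.0% ± 1.4 and 42.9% ± 5.1 (SD, n = 2 for each), a ratio of 3.06 against 8.0 for cytosolic enzymes. In both groups the libraries of each condition lay apart by more than the spread between replicates, but no test was run on sums over chosen genes, and the difference between the ratios was not tested.
The mitochondrial value rests on few reads, 26 in untreated cells, of which NARS2 held 10 and AARS2 7, and 96 in G418-treated cells, of which they held 40 and 21. Over all 14 mitochondrial enzymes, without a minimum of reads, aggregate RRTS was 7.84% in untreated and 28.97% in G418-treated cells. In the scaffold genes it was 0.415% and 1.12% in untreated cells and 2.21% and 4.74% in G418-treated cells, and without EEF1E1 the means were 2.17% and 11.3%.

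**Figure D4:**
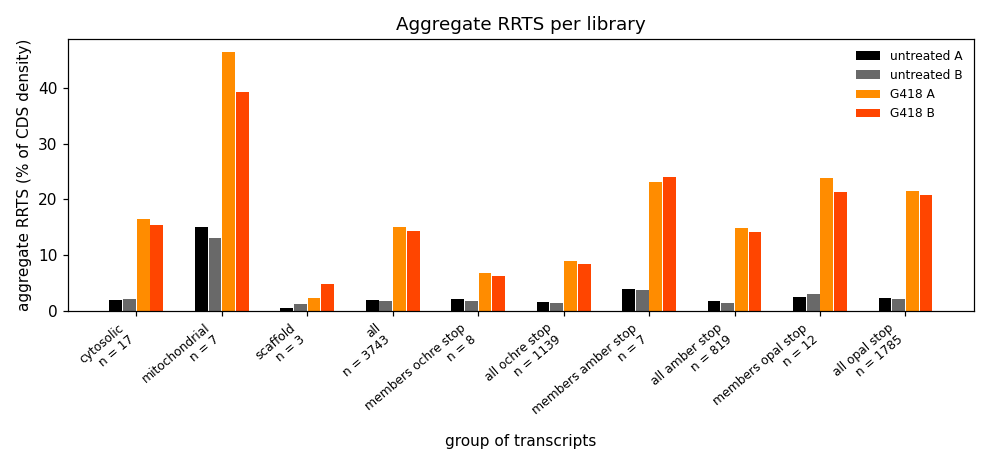
Aggregate RRTS (percent of CDS density) in each of the 4 libraries for cytosolic enzymes, mitochondrial enzymes, scaffold genes and all transcripts, and for the members and all transcripts by stop codon (ochre is UAA, amber UAG and opal UGA). Members with amber stop codons (23.2% and 24.0% in G418 A and B) lie above all amber transcripts (14.8% and 14.2%). Single amber members range from 9.07% (IARS) to 80.2% (WARS) in pooled G418 replicates. Members with ochre stop codons (6.70% and 6.28%, or 8.48% and 7.98% without EEF1E1) stand beside 8.90% and 8.31% for all ochre transcripts.

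By stop codon, the 27 synthetase and scaffold genes with enough reads followed the transcriptome for UGA, with 22.6% in G418-treated cells (mean of 2 libraries, 12 genes) against 21.1% for all UGA transcripts. For UAG the value was 23.6% (7 genes) against 14.5%, and for UAA 6.49% (8 genes) against 8.61%. Without EEF1E1 the UAA value was 8.23% (7 genes). The pooled G418 RRTS of the 7 UAG genes was 9.07% (IARS), 11.7% (YARS), 19.5% (KARS), 23.8% (MARS2), 26.9% (EARS2), 44.2% (NARS2) and 80.2% (WARS). Of these, IARS, YARS, NARS2 and WARS have C as the next nucleotide. The UAG value without WARS and NARS2 was not computed. Across all 34 genes, pooled G418 RRTS lay below the median of transcripts with the same stop codon and next nucleotide in 18 and above it in 16. Of the cytosolic enzymes 11 of 17 lay below, and of the mitochondrial enzymes 5 of 14 lay below. WARS, with UAG followed by C, had 80.2% against a median of 25.9% (n = 410), AARS2 and LARS2 exceeded the UGAC median of 39.03% (n = 664), and TARS2, at 61.9% from 6 of 9.70 expected reads, exceeded the UGAG median of 20.3% (n = 1236). RARS, whose RRTS covers the whole 3′UTR for lack of an in-frame 3′TC, lay below its UAAU median of 17.05% (n = 338). DARS at 4.69% lay below its UAAA median of 12.01% (n = 698), and IARS at 9.07% below the UAGC median of 25.9%. WARS and IARS, with the same 4 nt stop signal, differed by more than their intervals (51.9 to 118% and 3.92 to 17.9%). This pair was picked after its values were seen. The counted regions were short, 18 nt in WARS, 33 nt in IARS and 12 nt in TARS2, and their length includes the 3′TC. The part of region length in these values was not tested.

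RPFs in the 5′UTR, relative to CDS reads, were compared for the 18 genes with at least 20 such reads. None was called higher or lower by edgeR or DESeq2, against 0.0274% higher and 1.7% lower of 3656 transcripts tested, and at an unadjusted p-value below 0.05 there was 1 gene higher and 0 lower by edgeR. This gene was IARS, the cytosolic isoleucyl enzyme, with 131 and 52 5′UTR reads in untreated A and B and 186 and 157 in G418 A and B. Per 1000 CDS reads these were 21.8 and 23.2 in untreated cells and 34.4 and 33.9 in G418-treated cells, without overlap. The log2 fold change was 0.61 (standard error 0.20, adjusted p = 0.15 from edgeR and 0.23 from DESeq2). Without 1 library it lay between 0.56 and 0.65. NARS2 had the most 5′UTR reads per 1000 CDS reads of the 18, 141 and 255 in untreated cells and 190.5 and 158 in G418-treated cells, and these values overlapped.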

How the data were processed

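RPFs of 28 to 35 nt were analysed. The authors removed duplicates by molecular identifiers, aligned reads to hg38 with STAR, keeping a single alignment of reads that map to several places (uncertain for EEF1A1, which has near-identical copies), and used 1 transcript per gene. The deposited counts are reads on each mRNA and on its CDS and UTRs. The authors' RPM values scale the same reads to the library. The deposited RPKM densities divide RPM by a region length shortened next to start and stop codons (18 and 15 nt of the CDS, 6 nt after the NTC). Each deposited ratio is a 3′UTR density over the CDS density (RRTS or occupancy). 5′UTR densities as deposited are a score that was left unused.

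Whole reads were recovered from RPM (100% of values were whole multiples of 1 read within 0.01) and used for readthrough, 5′UTR reads and levels of RRTS. CDS counts were tested as deposited. On recovered CDS reads edgeR called 452 transcripts higher and 289 lower.

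CDS counts, readthrough (at least 10 reads before the 3′TC over 4 libraries and 128 mRNA reads per condition) and 5′UTR reads (at least 20, and 128 CDS reads per condition) were compared by edgeR's quasi-likelihood test over transcripts in all 4 tables, with TMM scaling for CDS counts and log of CDS reads plus 0.5 as offset for the others, and Benjamini-Hochberg adjustment over all transcripts tested. CPM are TMM-scaled. Intervals are exact 95% Poisson or binomial ones and cover counting error only. Tests were checked on simulated data. Values in every library are given for genes whose CDS counts passed, the 3 largest and 3 smallest CDS changes and the 6 genes with the most G418 reads between NTC and 3′TC. Other genes were named after their values were seen. The members and gene lists were chosen with earlier results of these data known. Tools were edgeR 4.0.16 and DESeq2 1.42.0 in R 4.3.3, and pandas 2.3.3, numpy 2.4.6, matplotlib 3.10.9 and scipy 1.17.1 in Python 3.11.15. Alternatives were DESeq2, other scaling, minimum reads and regions, a replicate block and leaving out each library.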

Additional observations from a re-analysis of the deposited data

How the results depend on the processing

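The number of the 34 genes whose CDS counts fell (5) was 3 with DESeq2 and 1 with library totals, and between 0 and 18 without 1 library. With the replicate letter as a block it was 10. The replicates share only a letter (the A minus B differences of the conditions correlated at 0.14), and the block moved the number with higher RRTS from 14 to 8. That number, 14 of 19 tested, was 21 of 25 with the whole 3′UTR, 16 of 27 with a minimum of 5 reads, 7 of 8 with a minimum of 20 reads, 7 with DESeq2, and between 8 and 13 without 1 library. For 5′UTR reads per CDS read, the number called higher was between 0 and 1 without 1 library. Where a library is left out, the lone library of its condition is assumed to vary like the others. Over all transcripts, the CDS calls (451 higher, 273 lower) were 113 and 140 with DESeq2, 887 and 120 with library totals, 618 and 452 with the block, and 57 to 990 higher and 15 to 1092 lower without 1 library. The RRTS calls (2336 higher) were 1536 with a minimum of 20 reads and 1408 with DESeq2.

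Library totals moved the median log2 fold change of CDS counts of all transcripts to 0.11, and that of cytosolic and mitochondrial enzymes to -0.081 and -0.059. Relative to all transcripts these medians were -0.19 and -0.17 under both scalings. Without 1 library the cytosolic median lay between -0.22 and -0.084. The sign reversed for IARS with library totals (0.033), for EEF1E1 without untreated replicate B (between -0.058 and 0.16 without 1 library), and, in RRTS, for LARS with the whole 3′UTR (0.099, or 0.000601 with deposited counts) and without untreated replicate A (between -0.84 and 0.65 without 1 library). The cause was not tested.

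On whole mRNA reads, the cytosolic share in G418-treated cells was 0.741%, and that of scaffold genes was 0.0608% in untreated and 0.0597% in G418-treated cells. As a median over genes, cytosolic RRTS was 0.724% in untreated and 16.8% in G418-treated cells, and mitochondrial RRTS in untreated cells was 6.35%. With a doubled minimum of mRNA reads, which left 2 mitochondrial enzymes, their RRTS was 25.4% and 74.8%, and without a minimum, an alternative chosen after seeing the data like those without EEF1E1, it was 7.84% and 28.97%. Few untreated reads limit RRTS, since 25 of the 34 genes had 3 or fewer.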
